A study of Mus musculus with 6 samples.

Results

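Transcripts of 9 genes of the general pluripotency programme were followed in mouse embryonic stem cells (ESCs): the transcription factor genes Pou5f1, Sox2 and Sall4, the chromatin protein genes Utf1, Dppa2 and Dppa4, and the RNA-binding protein genes Lin28a, L1td1 and Dppa5a. They were taken by name from 18857 genes with reads in at least 1 of 6 libraries, and each of the 9 had a single row with reads in every library. PolyA RNA was sequenced from KH2 ESCs, a line on a C57BL/6 x 129 background that all 6 libraries share, with 1 library per group. Wild-type KH2 cells were left without inhibitor or given PD0325901, an inhibitor of the Mek kinases that activate the Erk kinases, for 48 hours. The other 4 libraries came from KH2 cells of genotype iErk1; Erk KO, cultured either with doxycycline (Dox), or 48 hours after Dox was withdrawn, or 96 hours after its withdrawal, the latter alone or with PD0325901 during the final 48 hours. The labels do not give the inhibitor's dose, the use of feeder cells, or whether the engineered line is a single clone.

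Oct4, the product of Pou5f1, and Sox2 bind DNA as partners at composite elements and hold ESCs in the pluripotent state, and Sall4 is a zinc finger factor that works with them. In ESCs the Erk pathway, driven mainly by autocrine Fgf4, prepares cells to leave this state, and Mek inhibition is a standard component of media that keep mouse ESCs naive. The other 6 genes are expressed in pluripotent and germ cells and shut down upon differentiation, but they are not all highest in the naive state: Utf1 and Lin28a are known for higher expression in serum-grown or epiblast-like cells than in cells under Mek inhibition.

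Library totals were between 9.05 and 9.95 times 1e+06 reads assigned to genes, and between 16042 and 17403 genes had reads. Mapk3, which encodes Erk1, had 56.4 and 52.8 RPKM (reads per kilobase of gene and 1e+06 library reads) in KH2 cells, without and with inhibitor. In the engineered line Mapk3 stood at 14.8 RPKM with Dox. Without Dox it had 6.86 RPKM at 48 hours, 6.75 RPKM at 96 hours and 9.18 RPKM at 96 hours with PD0325901, so Mapk3 reads were lower but not gone. Which exons the remaining Mapk3 reads came from cannot be seen in counts per gene. The defining ESC markers Nanog and Zfp42 were high in all 6 libraries, at 105 to 397 RPKM and 171 to 395 RPKM. A list of 20 fibroblast markers took 0.492% of reads in KH2 cells and 1.70% with PD0325901, and 0.294% and 0.697% in the Erk KO pair. Since no group was replicated, ratios compare libraries, and intervals cover counting error only. In bulk RNA, fewer cells of a type and less RNA per cell cannot be told apart.

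Upstream sequences are shown for Utf1 and Lin28a, the 2 members that differed by 2-fold or more after 96 hours without Dox, and for Pou5f1 and Sox2, whose levels spanned the least, so that the DNA in front of the start sites can be compared. Each run is the 250 bases before a RefSeq start site in GRCm38.p6, 5′ to 3′ on the gene's own strand. Capitals mark matches, on either strand, to any of 6 letter patterns: the octamer sequence ATGCAAA, the Sox core CATTGT, the GC box GGGCGG, the nuclear receptor sequence AGGTCA, the Ets sequence CCGGAAG and the AP-1 sequence TGANTCA. The Utf1 window is chr7:139943606-139943855 (plus strand), the Lin28a window chr4:134018817-134019066 (minus strand), the Pou5f1 window chr17:35505782-35506031 (plus strand, 1 of 2 starts listed) and the Sox2 window chr3:34649745-34649994 (plus strand).
Utf1: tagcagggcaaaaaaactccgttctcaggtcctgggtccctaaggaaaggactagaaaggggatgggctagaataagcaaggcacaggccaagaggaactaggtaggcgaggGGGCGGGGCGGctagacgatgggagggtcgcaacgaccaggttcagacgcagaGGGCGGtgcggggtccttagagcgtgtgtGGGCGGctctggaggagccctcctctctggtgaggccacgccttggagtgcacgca
Lin28a: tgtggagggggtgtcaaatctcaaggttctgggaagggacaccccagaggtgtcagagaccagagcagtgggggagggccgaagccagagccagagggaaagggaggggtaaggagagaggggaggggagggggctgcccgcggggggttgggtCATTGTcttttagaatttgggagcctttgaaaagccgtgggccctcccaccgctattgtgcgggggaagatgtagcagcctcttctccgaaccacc
Pou5f1: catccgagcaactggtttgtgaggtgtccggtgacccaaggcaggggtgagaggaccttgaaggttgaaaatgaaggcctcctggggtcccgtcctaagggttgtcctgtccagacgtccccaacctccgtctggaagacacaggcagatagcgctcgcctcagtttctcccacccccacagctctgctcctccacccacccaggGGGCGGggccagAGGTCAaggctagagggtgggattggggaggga
Sox2: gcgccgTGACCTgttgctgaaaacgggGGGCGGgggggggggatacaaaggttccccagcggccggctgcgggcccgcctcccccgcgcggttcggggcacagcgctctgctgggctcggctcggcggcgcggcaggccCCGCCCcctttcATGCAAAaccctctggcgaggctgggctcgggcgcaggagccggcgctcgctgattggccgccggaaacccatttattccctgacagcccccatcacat

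The Utf1 window held 4 GC boxes, starting 138, 133, 85 and 56 bases before the start site, the first pair overlapping. GC boxes occurred in 32.7% of 32851 windows of the same length. The Lin28a window held 1 Sox core, 96 bases before the start, a pattern in 10.7% of windows. Pou5f1 had 1 GC box at 45 bases and 1 AGGTCA at 33 bases, and the latter pattern was in 14.02% of windows. Sox2 had 1 octamer sequence at 99 bases (4.12% of windows), 2 GC boxes at 223 and 111 bases and 1 AGGTCA at 244 bases. The Ets (6.91% of windows) and AP-1 (6.75%) patterns matched in none of these windows, and the L1td1 window (chr4:98726504-98726753, plus strand) matched none of the 6 patterns. These matches describe letters and not bound sites. Of the 9 genes, 5 were in the promoter table, and Sall4, Dppa2, Dppa4 and Dppa5a were not.

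Among the transcription factor genes, levels spanned less than 2-fold between libraries. Pou5f1 (gene ID 18999) had 769 RPKM in KH2 cells and 539 RPKM with PD0325901. In the engineered line it had 556 RPKM with Dox, 630 RPKM after 48 hours without Dox, 600 RPKM after 96 hours and 575 RPKM after 96 hours with PD0325901. The KH2 library without inhibitor stood above the other 5, which lay close together. Sox2 (20674) had 166 and 170 RPKM in the KH2 libraries, without and with inhibitor, and 207, 243, 263 and 271 RPKM in the 4 libraries of the line, in the same order as for Pou5f1. All 4 were above both KH2 libraries. Sall4 (99377) followed the same split, with 47.4 and 48.3 RPKM in KH2 cells and 76.5, 88.5, 67.3 and 72.2 RPKM in the line. From lowest to highest library the 3 genes spanned 1.43-fold (Pou5f1), 1.63-fold (Sox2) and 1.87-fold (Sall4).

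The chromatin protein genes spanned more. Utf1 (22286), whose product limits Polycomb loading at bivalent promoters, had 262 RPKM (2758 reads) in KH2 cells and 95.5 RPKM (1002 reads) with PD0325901. In the line it had 114 RPKM (1243 reads) with Dox, 38.2 RPKM (430 reads) at 48 hours without Dox, 55.6 RPKM (642 reads) at 96 hours and 28.8 RPKM (329 reads) at 96 hours with PD0325901. Utf1 had the widest span of the 9 genes, 9.07-fold, and within each genotype it was lower in every library with the inhibitor or without Dox. Dppa2 (73703) and Dppa4 (73693) encode SAP domain proteins that act as a pair at CpG-rich bivalent promoters. Dppa2 had 57.5 and 35.02 RPKM in KH2 cells and 95.3, 85.6, 91.8 and 59.6 RPKM in the line. Dppa4 had 80.3 and 51.2 RPKM in KH2 cells and 230 (3315 reads), 133, 156 and 115 RPKM in the line. For both partners the KH2 library with PD0325901 was the lowest and the Dox-maintained line the highest of the 6.

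Of the RNA-binding protein genes, Lin28a (83557), whose product blocks maturation of the microRNA let-7, had 90.5 and 50.2 RPKM in KH2 cells. In the line it had 109 RPKM with Dox, 60.0 RPKM at 48 hours without Dox, 53.7 RPKM at 96 hours and 38.4 RPKM at 96 hours with the inhibitor. The 2 libraries with neither inhibitor nor Dox withdrawal were the highest. L1td1 (381591), derived from the open reading frame of a LINE element, had 182 and 120 RPKM in KH2 cells and 454, 371, 434 and 355 RPKM in the line. Dppa5a (434423), a KH domain protein gene, had 1698 and 1807 RPKM in KH2 cells and 536, 722, 772 and 771 RPKM in the line. L1td1 was higher and Dppa5a lower in all 4 libraries of the line than in both KH2 libraries. The spans were 2.85-fold for Lin28a, 3.78-fold for L1td1 and 3.37-fold for Dppa5a, against 2.72-fold for Dppa2 and 4.48-fold for Dppa4.

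**Figure D1:**
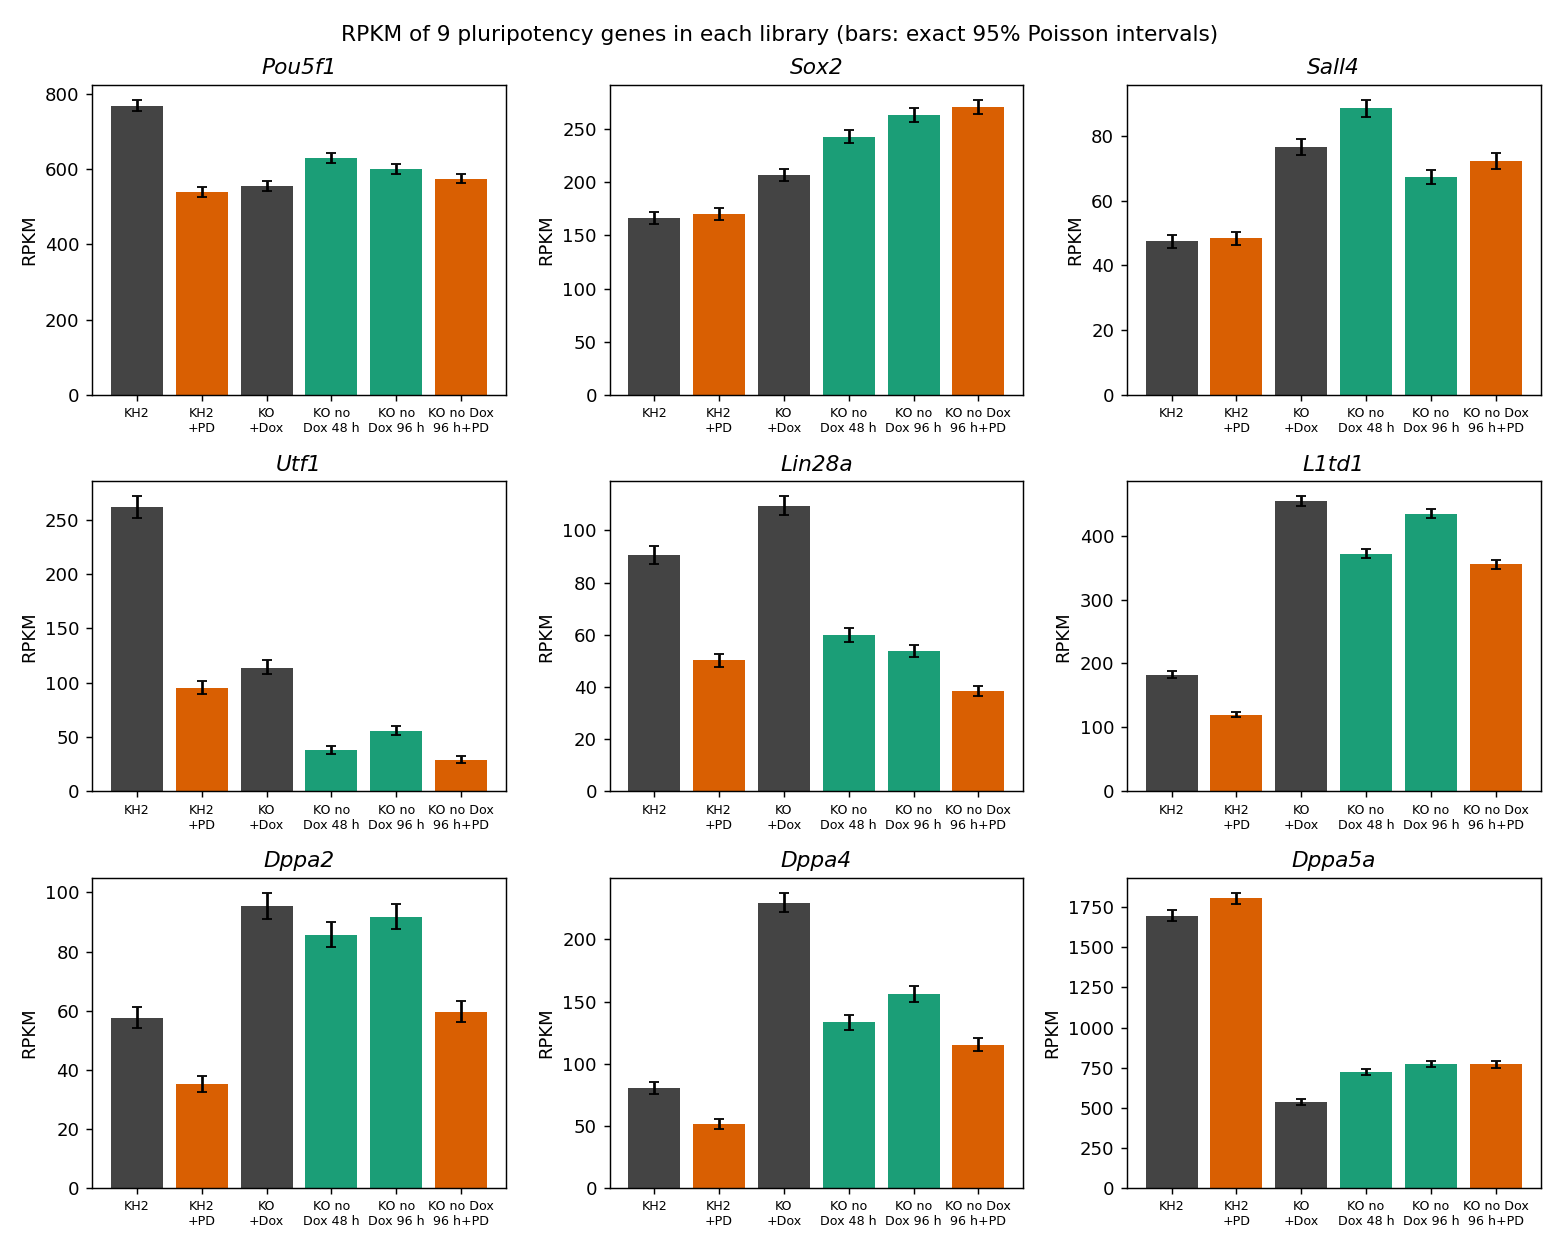
RPKM of the 9 genes in each of the 6 libraries, 1 bar per library, with error bars for exact 95% Poisson intervals of the read count; orange bars had PD0325901 and green bars were without Dox. Utf1 ran from 262 RPKM in KH2 cells to 28.8 RPKM in Erk KO cells with PD0325901, while Sox2 stayed between 166 and 271 RPKM.

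Dppa5a and Pou5f1 were the most abundant of the 9 per length, and Dppa5a ranked 29 among all genes in KH2 cells and 109 in the Dox-maintained line. Pou5f1 ranked between 91 and 114 in all 6 libraries, whereas Utf1 went from rank 215 in KH2 cells to rank 2737 in Erk KO cells with PD0325901. In KH2 cells and in the inhibited Erk KO cells each neighbouring pair in the order of levels differed beyond its counting interval. Neighbours whose intervals of the ratio included 1 were Dppa4, Lin28a and Sall4 in KH2 cells with PD0325901, and Sall4 and Dppa2 at 48 hours without Dox. The same held for Pou5f1 and Dppa5a, and for Utf1 and Lin28a, in the Dox-maintained line, and for Utf1 and Lin28a at 96 hours. The 9 genes together took between 0.335% and 0.438% of the reads of a library. Reads covered between 95.3% and 99.9% of each transcript. Sox2ot, a noncoding gene that overlaps Sox2, had 11 to 27 reads, and Pou5f1-rs4, a copy of Pou5f1, 0 to 2 reads. Reads that map to more than 1 place were not counted, so copies could lower the counts of Pou5f1 and Dppa5a.

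PD0325901 in wild-type cells addresses the effect of Mek inhibition, the first comparison of the series design. In KH2 cells Utf1 was 2.74-fold lower with the inhibitor (interval 2.55 to 2.95), and 99.5% of the genes tested had a higher ratio. Lin28a was 1.80-fold lower (1.70 to 1.92), Dppa2 1.64-fold (1.48 to 1.82), Dppa4 1.57-fold (1.42 to 1.72), L1td1 1.52-fold (1.45 to 1.59) and Pou5f1 1.43-fold (1.38 to 1.47). Dppa5a was 1.06 times its KH2 level (1.04 to 1.09), and the ratios of Sox2 (1.02, interval 0.978 to 1.07) and Sall4 (1.02, 0.960 to 1.08) had intervals that included 1. A size rule required 4 things of a gene: a difference of 1 or more on the log2 scale after 0.5 was added to both RPKM values, 1 RPKM or more where it was higher, 20 or more reads in the pair and an interval without 1 in it. By this rule 1 of the 9 genes was lower (Utf1) and 0 were higher, against 5.08% of 12787 genes that passed, 1.22% as lower and 3.86% as higher. The median log2 ratio was −0.60 over the 9 genes and −0.02 over all genes tested.

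The same inhibitor in cells labelled Erk KO, where Mapk3 still had 6.75 and 9.18 RPKM, is the design's second comparison. After 96 hours without Dox, Utf1 was 1.93-fold lower with PD0325901 (1.68 to 2.21), Dppa2 1.54-fold (1.43 to 1.66), Lin28a 1.40-fold (1.30 to 1.503), Dppa4 1.35-fold (1.27 to 1.44) and L1td1 1.22-fold (1.19 to 1.25). All 5 were lower in KH2 cells as well, and each by more there. Pou5f1 was 1.04-fold lower (1.01 to 1.08), Sox2 and Dppa5a had intervals that included 1, and Sall4 was 1.07 times its level without the inhibitor (1.02 to 1.13). None of the 9 genes passed the size rule, against 1.93% of 11920 genes, 0.587% as lower and 1.34% as higher. Utf1 (log2 ratio −0.93) came nearest, and 99.2% of the genes tested had a higher ratio. The median was −0.29 over the 9 genes and 0.01 over all genes tested.

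**Figure D2:**
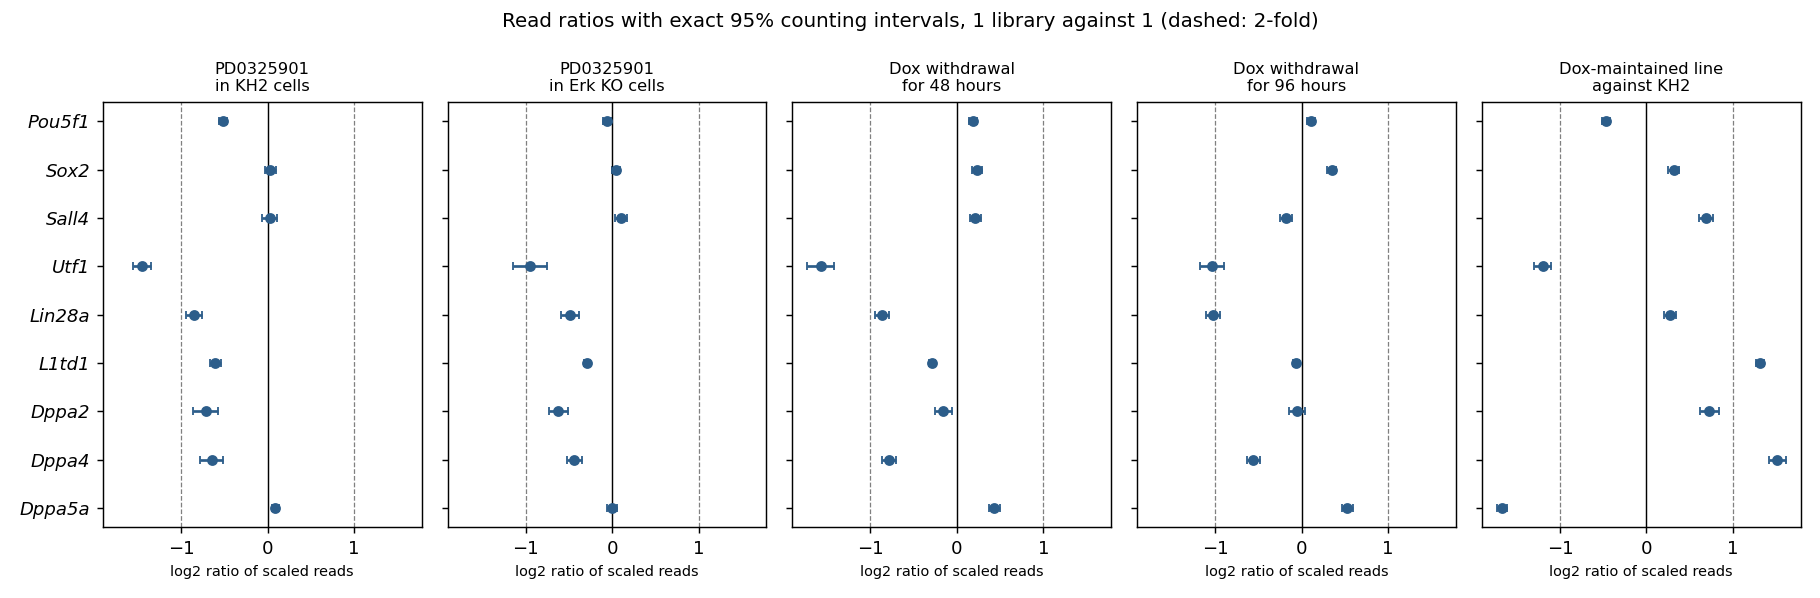
Log2 ratio of reads scaled to library totals for the 9 genes in 5 comparisons of 1 library against 1, with exact 95% counting intervals; dashed lines mark a 2-fold difference. Utf1 lies left of 0 in all 5 panels, and Sox2 and Sall4 lie at or near 0 in both inhibitor panels.

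A common effect of PD0325901 in both pairs was tested on their 4 libraries by edgeR's quasi-likelihood test, blocked by cell state, with Benjamini-Hochberg adjustment over 14782 genes. In it 5 of the 9 genes fell and 0 rose, against 8.97% of all genes called, 2.92% as lower and 6.05% as higher. Utf1 fell by 1.22 on the log2 scale (SE 0.118, adjusted p = 5.77e-06 by edgeR). Lin28a (log2 change −0.67, SE 0.103, edgeR adjusted p = 0.000598) and Dppa2 (−0.67, SE 0.0988, 0.000418) fell by the same amount. Dppa4 (−0.54, SE 0.0990, edgeR adjusted p = 0.00252) and L1td1 (−0.44, SE 0.0920, 0.00608) fell less. All 5 were lower in both treated libraries than in their own controls. Pou5f1 had a log2 change of −0.29 and an edgeR adjusted p of 0.0911, and Sox2 (0.04, adjusted p = 0.851), Sall4 (0.06, 0.735) and Dppa5a (0.04, 0.820) were near 0. DESeq2 called 4 of the 9 genes, without L1td1 (adjusted p = 0.0635). The fit had 1 residual degree of freedom. In edgeR fits without the block, or additive over all 6 libraries, 0 of the 9 genes were called. In the additive fit the edgeR adjusted p of Utf1 was 0.0852. The share of all genes called was not counted for DESeq2 or for these other fits, so their counts cannot be set against it.

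Fibroblast markers moved with the inhibitor in both pairs. Of 20 listed, 12 passed as higher in KH2 cells with a median log2 ratio of 1.62, and 12 of 19 tested passed in Erk KO cells with a median of 1.41. Col1a1, the main chain of type I collagen, went from 96.4 to 878 RPKM in KH2 cells and from 25.9 to 218 RPKM in Erk KO cells. The part of these cells in the lower levels of the 5 genes was not tested. The list's share of reads with the inhibitor was 1.70% in KH2 cells and 0.697% in Erk KO cells. With the 10 genes with the most reads and the fibroblast markers left out of the totals, 1 of the 9 genes (Utf1) passed as lower in KH2 cells and 0 in Erk KO cells, as with the full totals. This changed only the scaling, by 0.011 in the median log2 ratio in KH2 cells and 0.0024 in Erk KO cells. It does not remove other RNA of such cells, so it does not bear on their part.

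Whether the inhibitor's effect differed between wild-type and Erk KO cells was looked at for each gene as the log2 ratio in KH2 cells minus that in Erk KO cells, with an interval for counting error alone. It was −0.51 for Utf1 (−0.73 to −0.29), −0.45 for Pou5f1 (−0.52 to −0.39), −0.37 for Lin28a (−0.50 to −0.23) and −0.31 for L1td1 (−0.39 to −0.24). Dppa4 had −0.21 (−0.37 to −0.05), whereas Dppa2 (−0.09, −0.27 to 0.09), Sall4 (−0.07, −0.18 to 0.03) and Sox2 (−0.01, −0.09 to 0.07) had intervals that included 0. Dppa5a had 0.09 (0.02 to 0.16). In a fit of all 6 libraries, with both times after Dox withdrawal pooled into 1 state, edgeR called 0 of 15103 genes for this difference, 129 genes had an unadjusted p below 0.05, and none of those was among the 9. For Utf1 the difference in that fit was 0.72 (Erk KO minus KH2, SE 0.395, edgeR adjusted p = 0.9998), and DESeq2 called 0 of the 9. The differences were therefore beyond counting error for 6 genes. The spread in that fit came only from the difference between the pooled times after Dox withdrawal, and not from replicates. Its lack of calls therefore cannot show whether the inhibitor's effect was the same in wild-type and Erk KO cells.

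Other genes of the pluripotency network went in both directions with the inhibitor. Of 28 listed, 2 passed as higher in KH2 cells with PD0325901 (Prdm14, a repressor of DNA methyltransferase genes, log2 ratio 1.67, and Tbx3, a T-box factor, 1.19) and 1 as lower. In Erk KO cells 0 passed as higher and 1 as lower. In the edgeR test over both pairs, where 6.05% of all genes rose and 2.92% fell, 9 of the 28 rose and 5 fell. The median log2 change of the 28 was 0.03. Among them were Prdm14 (0.97, edgeR adjusted p = 0.0110) and Nr0b1, an orphan receptor gene (−0.76, 0.00128). Of 6 listed genes with a known Oct4-Sox2 element, 3 rose in that test and 0 fell: Nanog (0.68), Fgf4 (0.43) and Fbxo15 (0.42). The list held none of the 9 genes, so these counts do not cover Utf1 (−1.22). Pou5f1 and Sox2 themselves were not called. Of 13 genes of the Lin28 and let-7 pathway 0 passed in either pair, and in the edgeR test 0 rose and 2 fell, the paralog Lin28b (−0.55, edgeR adjusted p = 0.0411) and Hmga2, a let-7 target (−0.61, 0.00215). In a list of 13 paralogs, relatives and namesakes of the 9 genes, Pou3f1, a POU factor of primed cells, was lower in both pairs (−1.62 and −1.42), and in the edgeR test Pou3f1 and Lin28b fell and Dppa3 rose (0.53, adjusted p = 0.0457). Of 11 formative and primed markers 6 were lower in KH2 cells, 2 of 10 tested in Erk KO cells (Pou3f1 and Dnmt3a), and 6 fell and 1 rose (Cdh2) in the edgeR test.

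Dox withdrawal in the iErk1; Erk KO line is the design's comparison of Erk knockout, and Mapk3 went from 14.8 RPKM with Dox to 6.86 and 6.75 RPKM without it. After 48 hours Utf1 was 2.98-fold lower than with Dox (2.67 to 3.33), Lin28a 1.82-fold (1.73 to 1.93), Dppa4 1.72-fold (1.63 to 1.82), L1td1 1.22-fold (1.19 to 1.25) and Dppa2 1.11-fold (1.04 to 1.19). Dppa5a was 1.35 times its level with Dox (1.29 to 1.41), Sox2 1.17 times (1.13 to 1.22), Sall4 1.16 times (1.11 to 1.21) and Pou5f1 1.13 times (1.10 to 1.17). By the size rule 1 of the 9 genes was lower (Utf1) and 0 were higher, against 4.89% of 11386 genes, 2.13% as lower and 2.77% as higher. The median log2 ratio was −0.15 over the 9 genes and −0.03 over all genes tested.

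After 96 hours without Dox, Utf1 (2.05-fold, 1.86 to 2.26) and Lin28a (2.04-fold, 1.93 to 2.16) were lower than with Dox, and they were the 2 of the 9 genes that passed, against 9.68% of 11804 genes, 2.07% as lower and 7.62% as higher. Dppa4 was 1.47-fold lower (1.40 to 1.55) and Sall4 1.14-fold lower (1.08 to 1.19), while L1td1 was 1.04-fold lower (1.02 to 1.07) and Dppa2 had an interval that included 1. Dppa5a was 1.44 times its level with Dox (1.38 to 1.51), Sox2 1.27 times (1.23 to 1.32) and Pou5f1 1.08 times (1.047 to 1.12). With TMM scaling the median of all genes moved by −0.10, and the log2 ratio of Pou5f1 went from 0.11 to 0.00, so its direction is not set. With median-of-ratios factors it was −0.02. From 48 to 96 hours none of the 9 genes passed, against 5.02% of 11722 genes, 4.55% as higher and 0.469% as lower. Between those times Utf1 was 1.46 times its 48 hour level (1.29 to 1.65) and Sall4 1.32-fold lower (1.26 to 1.38).

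**Figure D3:**
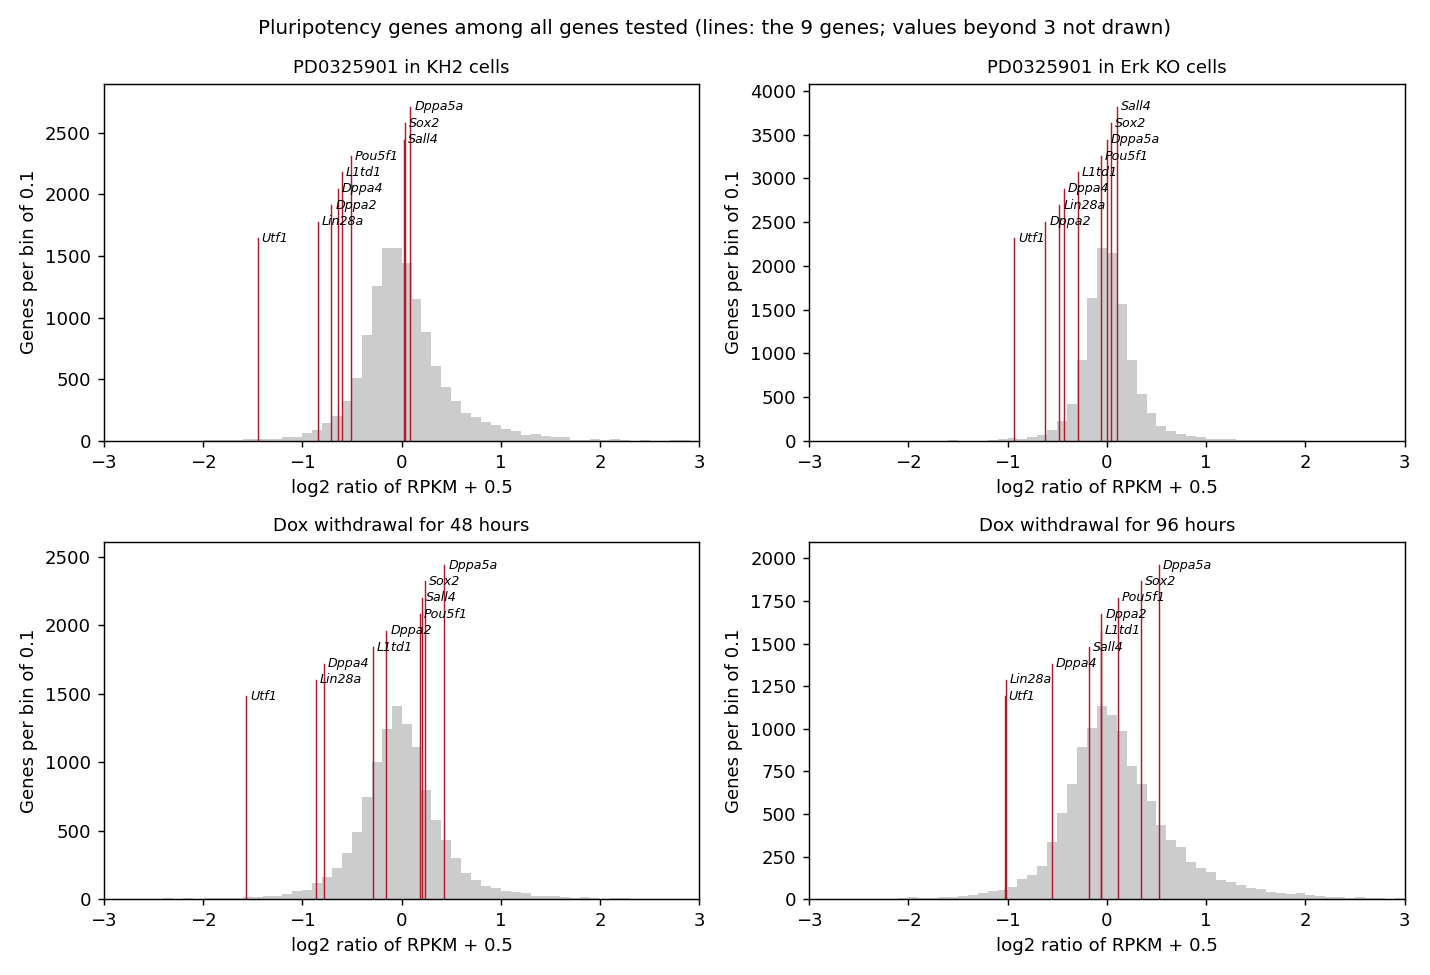
Number of genes per bin of 0.1 in the log2 ratio of RPKM plus 0.5 (grey) in 4 comparisons of 1 library against 1, with a red line at the value of each of the 9 genes; line heights only separate the names. Utf1 lies in the left tail in all 4 panels, at −1.45, −0.93, −1.56 and −1.03, while Sox2 lies between 0.03 and 0.35.

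The fit of all 6 libraries tested Dox withdrawal over both times against the library with Dox. Utf1 fell by 1.34 on the log2 scale (SE 0.2495, adjusted p = 0.0278 by edgeR's quasi-likelihood test and 0.0245 by DESeq2), 1 of 9 genes against 1.01% of 15103 genes called, 0.411% as lower and 0.603% as higher. Lin28a had a log2 change of −0.99 (SE 0.243), which missed the threshold with TMM scaling (edgeR adjusted p = 0.0759) and passed with RLE scaling (0.0115). Dppa4 had −0.72 (edgeR adjusted p = 0.215), and the other 6 genes lay between −0.22 and 0.43. For PD0325901 in KH2 cells this fit called 0 of the 9 genes with edgeR (0.51% of all genes, 0.43% as higher and 0.0795% as lower) and 0 with DESeq2, with 4 at an unadjusted p below 0.05, and Utf1 (−1.47) had an edgeR adjusted p of 0.0536. For PD0325901 in Erk KO cells it called 0 of the 9 with either tool (0.43% of all genes with edgeR, 0.391% as higher and 0.0397% as lower), with 3 at an unadjusted p below 0.05. The Dox comparisons share the library with Dox, and the 96 hour library is also the control of the inhibitor in Erk KO cells, so the low values of Utf1 there are not independent.

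Several naive genes were higher without Dox. Of the 28 other network genes 6 passed as higher at 48 hours and 2 as lower, among them Dnmt3l, a cofactor of DNA methyltransferases. At 96 hours 3 passed as higher and 2 as lower (Klf5, a Krüppel-like factor, and Nr0b1). Over all genes tested 2.77% were higher and 2.13% lower at 48 hours, and 7.62% and 2.07% at 96 hours. From 48 to 96 hours 22 of the 28 had a negative log2 ratio and 6 a positive one. Their median was −0.32, against 0.08 over all genes tested. Dppa3 (Stella), a maternal-effect and germ cell gene, went from 8.45 RPKM with Dox to 92.2 and 73.1 RPKM, Prdm14 from 4.80 to 19.7 and 18.4 RPKM, and Nanog from 105 to 397 and 296 RPKM. Of the 6 genes with a known Oct4-Sox2 element, 4 were higher at 48 hours and 1 at 96 hours, and 0 were lower. Lefty1, a Nodal antagonist (6.09 to 22.7 RPKM), and Fbxo15, an F-box gene (79.3 to 199 RPKM), were among them at 48 hours. That list left out all the genes followed here, so its counts do not cover Utf1. Utf1 passed as lower at 48 hours (log2 ratio −1.56) and at 96 hours (−1.03). In the Lin28 and let-7 list 0 of 13 passed at 48 hours, and at 96 hours Lin28b was lower (10.8 to 3.52 RPKM) and Igf2bp2, a let-7 target, higher (32.7 to 69.8 RPKM). Both Lin28 paralogs were thus lower at 96 hours. Of 11 relatives tested 2 were higher and 0 lower at 48 hours, and 5 were higher and 2 lower at 96 hours. Khdc3, a KH domain gene of the same family as Dppa5a, went from 20.2 RPKM with Dox to 53.1 and 74.9 RPKM. Genes of the 2-cell-like state, which the proteins of Dppa2 and Dppa4 are known to activate through Dux, were scarce: of 12 listed only 2 could be tested at 48 hours, and Zscan4f had 3 reads with Dox, 19 at 48 hours and 29 at 96 hours. The 2 tested at 48 hours (Zscan4f and Usp17la) passed as higher, as did the 1 tested at 96 hours (Zscan4f). Of 10 formative and primed markers tested, 1 was higher (Otx2) and 3 were lower at 48 hours. At 96 hours 4 of the 10 were higher (Pou3f1, Otx2, Lef1 and Zic2) and 1 was lower (Tcf15). Of 7 primitive endoderm markers tested 6 were lower at 96 hours, among them Gata6 (8.32 to 1.20 RPKM), while of 19 fibroblast markers 1 was lower at 48 hours (Twist1), and 2 were higher (Dcn and Lox) and 1 lower (Pdgfra) at 96 hours.

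The Dox-maintained line against wild-type KH2 shows how far the line differed before Dox was withdrawn. Dppa4 was 2.86 times (2.67 to 3.07) and L1td1 2.49 times (2.41 to 2.57) the KH2 level. Dppa5a was 3.17-fold lower (3.047 to 3.30) and Utf1 2.30-fold lower (2.15 to 2.46). These 4 of 9 genes passed, against 24.2% of 12421 genes, of which 2.76% were higher and 21.4% lower. Dppa2 (1.66 times, 1.53 to 1.79), Sall4 (1.61 times, 1.53 to 1.70), Sox2 (1.24 times, 1.19 to 1.30) and Lin28a (1.21 times, 1.15 to 1.27) were above the KH2 level without passing, and Pou5f1 was 1.38-fold lower (1.34 to 1.43). The median log2 ratio was 0.31 over the 9 genes and −0.37 over all genes tested.

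Scaling bears on this comparison more than on the others. With TMM the median of all genes moved by 0.37, and 4 of the 9 genes passed as higher (Sall4, L1td1, Dppa2 and Dppa4) and 1 as lower (Dppa5a), while Utf1 stood at −0.79. The share of all genes that passed with TMM was not counted, so these counts cannot be set against it. The log2 ratio also fell with the GC content of the transcript, known for 90.3% of the genes tested: in 5 equal groups of genes from low to high GC the median was −0.02, −0.17, −0.34, −0.57 and −0.80. Utf1 had the highest GC content of the 9 genes (63.5%), then Pou5f1 (57.6%), and Dppa2 the lowest (43.9%). Relative to genes of similar GC content, Utf1 was at −0.39, Pou5f1 turned from −0.47 to 0.33, and Dppa5a (−1.32), Dppa4 (1.68) and L1td1 (1.48) stayed beyond 1 in size. Sall4 went from 0.68 to 1.26, and with TMM scaling it stood at 1.09. The direction of Pou5f1 between the line and KH2 is therefore not set. In the inhibitor and withdrawal comparisons the medians of these GC groups lay between −0.07 and 0.10.

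**Figure D4:**
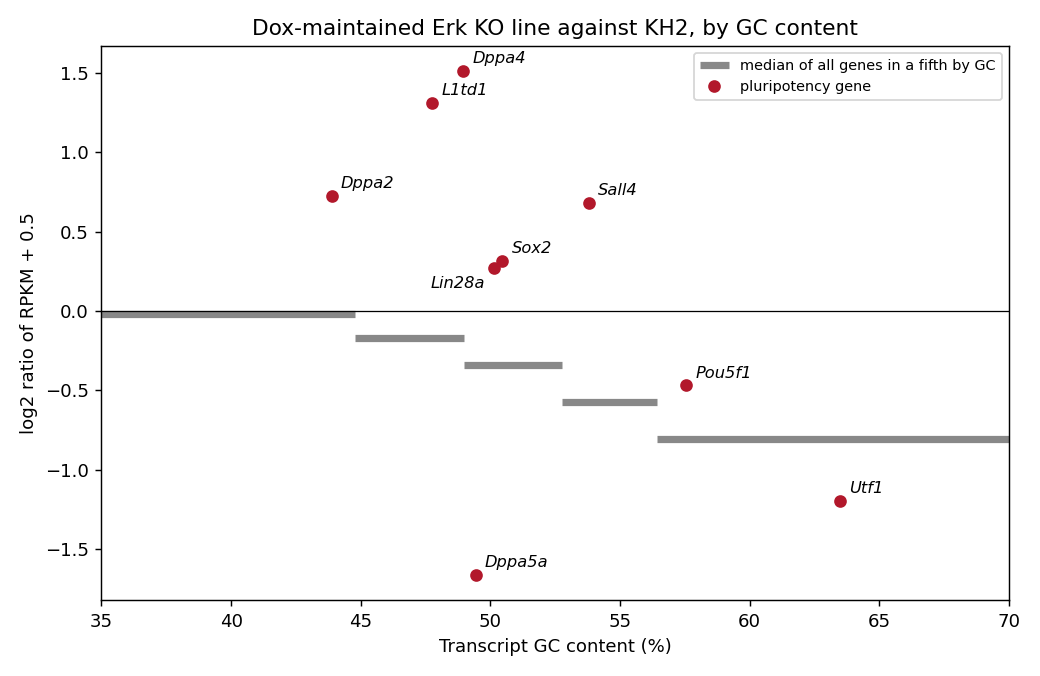
Log2 ratio of RPKM plus 0.5 in the Dox-maintained Erk KO line over KH2 cells against the GC content of the transcript in percent; red points are the 9 genes and grey lines the medians of all genes in 5 equal groups by GC content, drawn over the range of each group within the axis. The grey medians step down from −0.02 to −0.80, and Dppa4, L1td1, Sall4 and Dppa5a lie farthest from the median of their group.

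In the fit of all 6 libraries the line differed from KH2 in 4 of the 9 genes, against 8.29% of 15103 genes called, 5.18% as higher and 3.11% as lower. Dppa4 rose by 1.91 on the log2 scale (SE 0.288, edgeR adjusted p = 0.00663), L1td1 by 1.71 (SE 0.316, 0.0106) and Dppa2 by 1.12 (SE 0.275, 0.0279), and Dppa5a fell by 1.27 (SE 0.302, edgeR adjusted p = 0.0244). Sall4 (1.08) had an edgeR adjusted p of 0.0549 and was called by DESeq2 (0.0302). Utf1 (−0.81, edgeR adjusted p = 0.106), Sox2 (0.71, 0.148), Lin28a (0.67, 0.163) and Pou5f1 (−0.08, 0.897) were not called. Genotype and Dox cannot be told apart here. The files of the line also lack the symbols that the KH2 files carry, and whether library preparation or processing differed is not stated. Any such difference cannot be told apart from genotype either. These calls were made without correction for GC content. By the size rule 3 of the other 28 network genes were higher (Klf5, Tfcp2l1 and Fbxo15) and 3 lower, led by Lefty1 (65.6 to 6.09 RPKM) and Dppa3 (38.1 to 8.45 RPKM). Over all genes tested 2.76% passed that rule as higher and 21.4% as lower. In the Lin28 and let-7 list Hmga2 (13.9 to 47.4 RPKM) and Igf2bp3, an RNA-binding protein gene and let-7 target (11.4 to 36.6 RPKM), were higher and 0 were lower. Of 19 fibroblast markers tested 9 were lower in the line, where the list took 0.228% of reads against 0.492% in KH2 cells, and its part in these differences was not tested.

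The genes most like each member were found among 9475 genes as those with the smallest root mean square distance between log2 profiles, each centred on its own mean over the 6 libraries. For Utf1 they were Epha1, an ephrin receptor gene (distance 0.163, Pearson r 0.991), the metal transporter gene Slc39a14 (0.201, r 0.985) and Adam23 (0.205, r 0.982). Epha1 had 9.58 and 2.63 RPKM in KH2 cells and 4.58, 0.882, 1.26 and 0.559 RPKM in the line, the same order of libraries as Utf1. For Lin28a the nearest were Cmah (0.107), Zbtb12 (0.110) and Jmjd1c (0.116). For L1td1 they were Kif20b (0.0802), Cfdp1 (0.0965) and Mns1 (0.116), and for Dppa2 Ruvbl1 (0.117), Mylpf (0.124) and Hspd1 (0.130). Dppa4 was nearest to Vegfc (0.1003), Ssbp1 (0.108) and Lyar (0.122). Dppa5a was nearest to Pam16 (0.0436), Gatd1 (0.0683) and Psmg4 (0.0858), and Pam16 was the closest match to any of the 6 members compared. None of the 9 genes was among the 3 nearest of another, Dppa2 and Dppa4 included. The 6 points are single libraries that share depth and scaling, so these values describe likeness and carry no test. Pou5f1, Sox2 and Sall4 spanned less than 1 on the log2 scale and were not compared.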

How the data were processed

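PolyA RNA from 6 libraries, 1 per group, was read as 50-base single ends (labels' protocols). The deposited read count is of uniquely mapped reads by gene, per the file headers, and sums to the library total. The deposited RPKM divides it by gene length in kilobases and by that total over 1e+06, which was checked on every gene, and the deposited percent is the covered share of each gene's length. The submitters' processing notes name mm9. No aligner or annotation is given in the sources used here. Strand is not separated.

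Files were joined by gene ID (18857 genes, absent rows set to 0). Symbols came from RefSeq, since the 4 files of the Erk KO line lack them, and promoters from RefSeq in GRCm38.p6. The 9 genes and all lists were chosen with earlier results of these data known. Each comparison set 1 library against another, with log2 ratios on RPKM plus 0.5 and exact 95% Clopper-Pearson intervals of read ratios. Intervals cover counting error only, since reads carry no molecular identifiers. P-values come from edgeR 4.0.16 (quasi-likelihood F test, TMM, at least 20 reads, Benjamini-Hochberg threshold 0.05) and DESeq2 1.42.0. Both fits have 1 residual degree of freedom: in the fit of 4 libraries it is the difference between the inhibitor's effects in the 2 states, and in the fit of 6 libraries the difference between 48 and 96 hours without Dox. The p-values rest on these differences and not on replicates, and nothing states that the libraries are separate cultures. The tests were also run on simulated data with planted inhibitor changes, to check that these were found with the right sign. Those data held no difference between cell states or Dox times, so they do not bear on the p-values given here.

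The text names all 9 genes, up to 3 passing genes of each other list per comparison, largest first, and the 3 genes nearest to each member in profile. Names that complete a count of 5 or fewer, Nanog and Zfp42 as ESC markers, and Mapk3 were added outside that rule. Some genes that the rule names are left out of the text. Alternatives changed the pseudocount, scaling, filter, block and tool. One, relative to genes of similar GC content, was added after the data were seen.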

Additional observations from a re-analysis of the deposited data

How the results depend on the processing

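No call changed direction under any alternative. The log2 ratio of Pou5f1, which was never past the size rule, changed sign in the Dox-maintained line against KH2 (from −0.47 to 0.33 relative to genes of similar GC content) and after 96 hours without Dox (from 0.11 to −0.02 with median-of-ratios factors). Uncalled values that lay next to 0 also changed sign: Sall4 for PD0325901 over both pairs (from 0.06 to −0.10 in the additive fit of 6 libraries), Dppa5a with PD0325901 in Erk KO cells, and Sox2 in the difference of the inhibitor's effect. Of the member counts, 99 values stayed within 1.5 times the reported count and 11 did not. In the Dox-maintained line against KH2, members passing as higher went from 2 to 4 with TMM scaling and to 4 with median-of-ratios factors, and members passing as lower went from 2 to 1 with TMM scaling, with median-of-ratios factors and relative to genes of similar GC content. For PD0325901 over both pairs, members lower went from 5 to 0 without the cell-state block and to 0 in the additive fit of 6 libraries. In the six-library fit, members lower with PD0325901 in KH2 cells went from 0 to 1 (Utf1) with RLE scaling and to 1 with no filter, and members lower after Dox withdrawal went from 1 to 2 (Utf1 and Lin28a) with RLE scaling and to 2 with no filter. The share of all genes called was not counted under the alternatives, so these member counts have no background beside them. The causes of these shifts were not tested. Of the values of single genes, 430 kept within their limits or their call, 47 moved, 7 gained a call and 11 lost one. With 329 reads or more for every member in every library, counting error was small, and the single library per group limits each comparison.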
